A study of Mus musculus with 32 samples.

Results

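The genes described here are 9 immune checkpoint receptors and ligands of the mouse, chosen by name from the 54446 genes of the count tables. They were the receptors Pdcd1 (PD1), Ctla4, Lag3, Tigit, Havcr2 (TIM-3) and Tnfrsf9 (4-1BB), and the ligands Cd274 (PD-L1), Pdcd1lg2 (PD-L2) and Lgals9 (galectin-9). All 9 had a count in each of the 3 experiments. RNA sequencing was done on 32 tumours, grown in the liver of immune-competent BALB/c mice from implanted cells of the murine hepatoma line BNL-MEA. The dose experiment (p112) compared 4 tumours given vehicle (Veh) with 3 given the kinase inhibitor regorafenib at 5 mg/kg/day (Reg5, the low dose) and 3 at 20 mg/kg/day (Reg20, the high dose). Among the kinases it blocks are the VEGF receptors. The DC-101 experiment (p103) had 4 vehicle tumours, 3 at the low dose and 3 given DC-101, which is an antibody against murine VEGFR2 injected at 800 μg on days 1, 3 and 5. The anti-PD1 experiment (p101) held vehicle, low dose regorafenib, anti-PD1 antibody and both agents together (n = 3 each). All tumours came from 1 cell line in 1 strain, and the labels give neither the age of the mice nor the time of sampling. The labels name each experiment as a batch, so every treatment was compared with the vehicle of its own experiment, and treatments of 1 experiment share those vehicle tumours.

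An immune checkpoint is a receptor on an immune cell that dampens or sustains its response when it meets its ligand on a neighbouring cell. PD1 is induced on activated T cells, and its ligands PD-L1 and PD-L2 are made by tumour cells and by myeloid cells under inflammatory signals. CTLA-4 competes with CD28 for CD80 and CD86, LAG-3 binds MHC class II, and TIGIT competes with CD226 for the poliovirus receptor. TIM-3 is found on exhausted T cells and also on macrophages and dendritic cells. 4-1BB is the odd one out, since it is a co-stimulatory receptor of the TNF receptor family. An antibody to PD1 blocks the receptor protein, so its transcript need not follow the treatment.

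The total count per library was 16.8 M to 27.7 M. Cell type lists were scored in each library as the mean log2 CPM of their genes, where CPM is counts per M of the TMM-adjusted library total. All 15 T cell markers, all 14 macrophage markers and all 18 hepatocyte markers had counts in every library. The summed level was 15.6 to 132 CPM for the T cell list, 968 to 20600 CPM for the macrophage list and 132 to 124000 CPM for the hepatocyte list. In such bulk tumour pieces, fewer cells of a type and less RNA per cell cannot be told apart. In the first high dose library the hepatocyte list summed to 124000 CPM, against 1990 to 11900 CPM in the vehicle libraries of that experiment.

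On the mouse genome GRCm38, Pdcd1 lies at chr1:94038305-94052553 and Ctla4 at chr1:60887000-60915832. Lag3 lies at chr6:124904361-124911705, Tigit at chr16:43648867-43664146 and Tnfrsf9 at chr4:150914562-150946102. The ligand genes Cd274 and Pdcd1lg2 are neighbours on chromosome 19, at chr19:29367455-29388095 and chr19:29410919-29471161. Lgals9 and Havcr2 share chromosome 11, at chr11:78962974-78984946 and chr11:46454935-46481255. Cd274 shares 511 exonic bases with an antisense gene on the other strand (AC119228.1). The strand setting of the counting is not given in the sources used here, so reads of that pair cannot be told apart.

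Of the 9 genes, 8 had an entry in the RefSeq promoter table for GRCm38.p6, which has none for Lag3. Of the 9 windows, 5 are printed, each of 250 bases before the start and on the strand of the gene. They are shown because these members differed most in the genes they followed across libraries, as described below. The Pdcd1 window (chr1:94052554-94052803, minus strand) and the Tigit window (chr16:43664185-43664434, minus strand) have capitals at the NFAT core GGAAA, read on either strand.
Pdcd1: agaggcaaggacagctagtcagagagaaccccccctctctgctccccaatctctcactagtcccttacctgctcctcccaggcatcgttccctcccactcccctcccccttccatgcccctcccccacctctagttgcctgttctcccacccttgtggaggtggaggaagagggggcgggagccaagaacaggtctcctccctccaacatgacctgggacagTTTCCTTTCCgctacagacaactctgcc
Tigit: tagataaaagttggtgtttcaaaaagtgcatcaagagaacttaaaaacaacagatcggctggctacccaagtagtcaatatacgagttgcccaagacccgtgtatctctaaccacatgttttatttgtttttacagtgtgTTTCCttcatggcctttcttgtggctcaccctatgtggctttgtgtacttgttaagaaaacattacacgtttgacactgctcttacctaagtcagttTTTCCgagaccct
The Cd274 window (chr19:29367188-29367437, plus strand) has capitals at the hypoxia response element core GCGTG or ACGTG.
Cd274: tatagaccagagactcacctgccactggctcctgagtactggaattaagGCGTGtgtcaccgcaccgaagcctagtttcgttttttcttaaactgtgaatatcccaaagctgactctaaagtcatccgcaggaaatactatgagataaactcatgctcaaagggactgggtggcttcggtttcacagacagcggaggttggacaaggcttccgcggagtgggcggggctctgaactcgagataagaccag
The window of the second Tnfrsf9 start (chr4:150927749-150927998, plus strand) and the Lgals9 window (chr11:78984925-78985174, minus strand) have capitals at 3 motifs. These are the STAT core TTCNNNGAA, the NF-kB core (GGG and CC with NNNNN between them) and the interferon-stimulated response element core (GAAA and GAAA with NN between them).
Tnfrsf9: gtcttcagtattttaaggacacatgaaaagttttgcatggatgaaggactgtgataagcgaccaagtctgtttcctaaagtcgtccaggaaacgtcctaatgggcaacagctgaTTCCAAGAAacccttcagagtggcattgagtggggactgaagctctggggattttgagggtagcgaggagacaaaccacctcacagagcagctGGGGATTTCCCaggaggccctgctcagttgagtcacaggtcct
Lgals9: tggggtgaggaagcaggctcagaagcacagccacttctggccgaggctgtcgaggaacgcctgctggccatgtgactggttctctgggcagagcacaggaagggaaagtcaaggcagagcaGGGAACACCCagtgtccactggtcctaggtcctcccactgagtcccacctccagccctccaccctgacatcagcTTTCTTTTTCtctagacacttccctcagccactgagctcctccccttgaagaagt
The NFAT core was found in 7 of the 8 genes with a window and in 55.6% of all 32851 promoters. In Pdcd1 it stood as a pair of adjoining copies, 28 to 19 bases before the start. The interferon-stimulated core, held by 2.98% of all promoters, was found in Lgals9 and in no other member. The STAT core (7.02% of all promoters) was found in the second Tnfrsf9 window alone among the members. That window also held overlapping NF-kB cores 43 to 33 bases before the start, a motif of 45.8% of promoters. The hypoxia cores were searched after the values were seen. ACGTG (16.6% of promoters) was found in Ctla4, Havcr2 and Tigit, and GCGTG (28.2%) in Cd274. The windows of Tnfrsf9, Pdcd1, Lgals9 and Pdcd1lg2 held neither hypoxia core, and the Tigit match is left in lower case above. The AP-1 motif TGANTCA (6.75%) was found in Havcr2 and in the second Tnfrsf9 window. Motifs were searched on both strands and may overlap each other, and a match is only a description of the sequence.

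Per kb of exon, Lgals9 was the highest, with a median of 56.4 CPM per kb over the 32 libraries (36.6 to 329). Tnfrsf9 followed at a median of 16.5 CPM per kb (6.42 to 57.2) and Havcr2 at 11.8 CPM per kb (1.51 to 24.6). The other members were lower by far. The median was 2.25 CPM per kb for Cd274, 1.48 for Pdcd1, 1.16 for Lag3 and 1.12 for Tigit. Ctla4 had a median of 0.168 CPM per kb and Pdcd1lg2 one of 0.0766. The ranges of all neighbours in this order overlapped. On this scale Tigit was nevertheless above Ctla4 in 32 of 32 libraries, whereas Cd274 exceeded Pdcd1 in 19 of 32 and Lag3 exceeded Tigit in 17 of 32. The exonic length is 919 bases for Tigit and 2330 for Ctla4. Before division by length, the second DC-101 library had 3 counts of Tigit against 5 of Ctla4. Pdcd1lg2 had 0 to 16 counts per library and was at 3 counts or below in 16 of 32. Ctla4 had 0 to 45 counts and was at 3 counts or below in 8 of 32. In the filtered edgeR fits Pdcd1lg2 was therefore left out, and Ctla4 was tested in 2 of the 3 experiments. Without the filter, the smallest adjusted p of Pdcd1lg2 was 0.423 (high dose against vehicle), and that of Ctla4 in the DC-101 experiment was 0.634. The levels relative to marker lists, given further on, cover all 9 members.

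**Figure D1:**
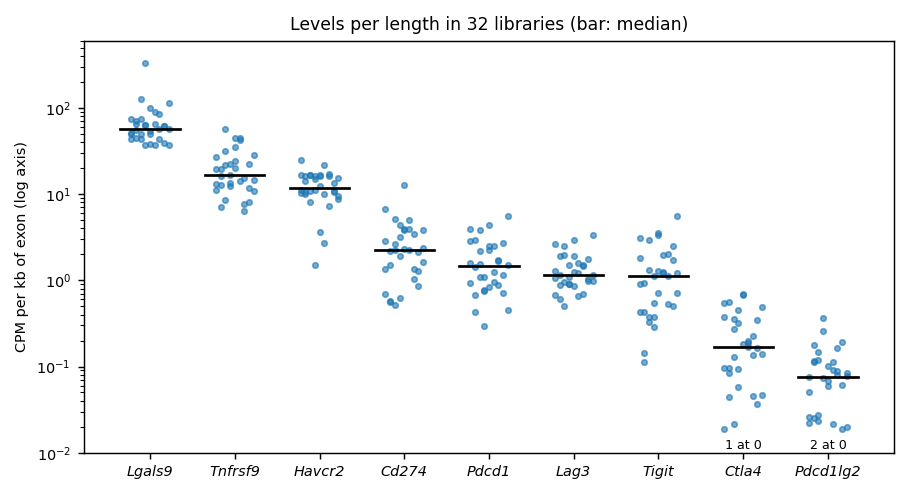
Level of each checkpoint gene in the 32 libraries, as CPM per kb of exon on a log axis. Each point is 1 library and each bar the median; Lgals9 was highest at 56.4 and Pdcd1lg2 lowest at 0.0766 CPM per kb, and libraries at 0 are counted at the foot.

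The members fell into sets that rose and fell together across libraries. Likeness was measured as Pearson's r of log2 CPM over the 32 libraries after the mean of each experiment was subtracted, and it is a description: the libraries share treatments, and 15428 genes were compared (15429 for Ctla4 and Pdcd1lg2). The genes most like Pdcd1 were Cd8a and Cd8b1 (r = 0.89 each), the chains of the CD8 coreceptor. Tigit was most like Il2rb (r = 0.94), a chain of the IL-2 receptor, followed by Sh2d2a (r = 0.91), an adaptor of T cells. Lag3 was most like Nkg7 (r = 0.82), a cytotoxic granule protein, Cd3g (r = 0.80) and Skap1 (r = 0.78). The inhibitory T cell receptors thus followed T cell transcripts. Ctla4 was most like its own relatives Cd28 (r = 0.83) and Icos (r = 0.82), beside Il18bp (r = 0.83). Among the members themselves, Pdcd1 and Tigit had r = 0.82 and Ctla4 and Tigit r = 0.77. Pdcd1lg2, at its low counts, was most like Cd247 (r = 0.75), Sh2d2a (r = 0.70) and Stat4 (r = 0.69).

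Havcr2, Tnfrsf9, Cd274 and Lgals9 followed other genes. Havcr2 was most like Cd33 (r = 0.93), a myeloid surface lectin, Ctss (r = 0.91), a protease of antigen-presenting cells, and Gm44751 (r = 0.91). Its r with the macrophage list score was 0.90, against -0.09 with the T cell list score. Tnfrsf9 was most like Ero1l (r = 0.93), an oxidase of protein folding, and Pgk1 and Slc2a1 (r = 0.89 each), a glycolytic enzyme and the glucose transporter GLUT1. Its r with the T cell list score was 0.20. Cd274 was most like Nos2 (r = 0.85), the inducible nitric oxide synthase, Egln3 (r = 0.83), a prolyl hydroxylase that targets HIF, and Fndc1 (r = 0.82). Among the members, Cd274 had its largest r with Ctla4 (0.74), followed by Tigit and Tnfrsf9 (0.63 each), and its r with the T cell list was 0.46. Lgals9 was most like Agpat2 (r = 0.96), an enzyme of lipid synthesis, Cmtm8 and Gm13443 (r = 0.95 each). Its r with the hepatocyte list score was 0.70.

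**Figure D2:**
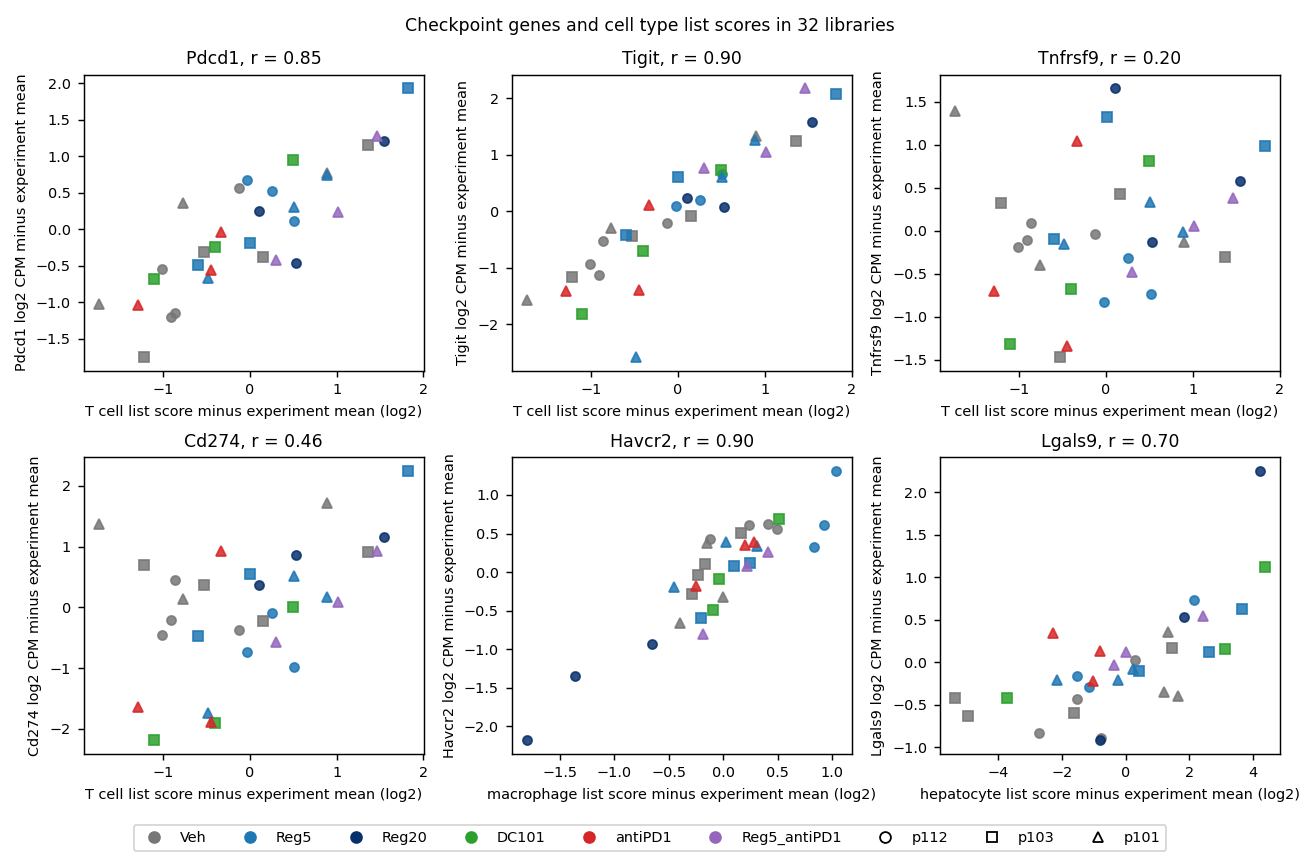
Log2 CPM of 6 checkpoint genes against the score of a cell type list (mean log2 CPM of its genes), both after subtracting the mean of the experiment. Each symbol is 1 of 32 libraries, coloured by treatment and shaped by experiment; Pdcd1 and Tigit lie along the T cell score and Havcr2 along the macrophage score, with Tnfrsf9 spread widely at r = 0.20.

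The anti-PD1 experiment asked what an antibody to PD1 did to the tumours with and without low dose regorafenib. None of the 8 members tested was past an adjusted p of 0.05 in edgeR's quasi-likelihood test for anti-PD1 against vehicle, for the combination against vehicle or for the combination against anti-PD1. The share of all 16615 genes called was 0% in each of these comparisons. DESeq2 and limma voom called no member either. At an unadjusted p under 0.05 there were 0, 0 and 1 members, against 13.7%, 8.2% and 8.68% of all genes. Values of single libraries follow, since the tests had wide intervals at 3 tumours a group. They are given for all 12 libraries for Tigit, Pdcd1 and Cd274, and without the low dose group for Ctla4, Tnfrsf9 and Havcr2.

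Tigit, an inhibitory receptor of T cells and NK cells, differed most between the treated groups. It was at 2.81, 0.848 and 0.299 CPM under vehicle and at 1.66, 0.102 and 2.69 CPM under low dose regorafenib. Under anti-PD1 it was at 0.348, 0.344 and 1.16 CPM, and under the combination at 1.86, 2.30 and 5.16 CPM. All 3 combination tumours were above all 3 anti-PD1 tumours, while the other groups overlapped with both. The log2 change of the combination against anti-PD1 was 2.32 (SE 1.01, 95% interval 0.11 to 4.53), with an adjusted p of 0.551 in edgeR. A separation in this direction was seen in 16.2% of the genes tested in that comparison. The T cell list moved with it: its score was 0.12 to 1.07 under anti-PD1, 1.71 to 2.87 under the combination and -0.33 to 2.30 under vehicle. The NK cell list scored -3.27 to -2.05 under anti-PD1, -0.37 to -0.06 under the combination and -2.12 to -0.17 under vehicle. Under anti-PD1 the 5 genes of the NK cell list summed to 0.0984 to 0.896 CPM, with a count for 1 to 4 of them, so those scores rest on few reads. The hepatocyte list scored 4.97 to 6.44 under anti-PD1, 6.90 to 9.67 under the combination and 8.47 to 8.91 under vehicle. The part of the NK cell list in the Tigit change was not tested. The share of counts on mitochondrial genes was 0.37% to 0.68% under anti-PD1 and 1.36% to 2.34% under the combination, and its part was not tested either. Set relative to the T cell score, Tigit was 0.61 higher on the log2 scale in the combination than under anti-PD1 (exact permutation p = 0.2, where 0.1 is the smallest possible). In the same comparison Pdcd1 differed from the T cell score by -0.71, Lag3 by -1.08 and Havcr2 from the macrophage score by -0.42, each with an exact permutation p of 0.1 and an adjusted p of 0.3.

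Pdcd1, the target of the antibody, was at 7.61, 5.69 and 2.13 CPM under vehicle and at 2.99, 2.12 and 4.31 CPM under anti-PD1. The combination held 3.29, 5.21 and 10.9 CPM, and low dose regorafenib 5.48, 2.76 and 7.48 CPM. Every pair of groups overlapped. The log2 change was -0.75 (SE 0.57, adjusted p = 0.596) for anti-PD1 against vehicle and 0.30 (SE 0.56, adjusted p = 0.904) for the combination against vehicle. Relative to the T cell list, Pdcd1 differed from vehicle by -1.13 on the log2 scale under the combination, by -0.74 under low dose regorafenib alone and by -0.42 under anti-PD1 alone (exact permutation p = 0.4). For the first and the second the exact permutation p was 0.1, the smallest that 3 against 3 allows, with an adjusted p of 0.3 and 0.45. Ctla4 relative to that list differed by -1.50 under the combination and by -1.66 under low dose regorafenib, again with an exact p of 0.1 each, and by -1.74 under anti-PD1 (exact p = 0.3). For Lag3 the differences were -0.88 (exact p = 0.1), -0.78 (exact p = 0.2) and 0.20 (exact p = 0.7) in the same order. Lag3, a receptor for MHC class II, had log2 changes between -0.14 and 0.38 against vehicle under anti-PD1 and the combination.

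Ctla4 was at 1.28, 1.30 and 0.299 CPM under vehicle. Under anti-PD1 it was at 0.0498, 0 and 1.07 CPM, which are 1, 0 and 22 counts, and under the combination at 0.533, 0.817 and 1.13 CPM. The anti-PD1 group thus held both the lowest libraries and one near the vehicle level. Its log2 change against vehicle was -1.37 (SE 1.11, adjusted p = 0.617). Leaving out single libraries moved it between -5.03, without the third anti-PD1 library, and -0.79, without the second. The regulatory T cell list, whose cells express CTLA-4 constitutively, scored -1.74 to -1.36 under anti-PD1 and -0.46 to 0.74 under the combination, against -1.46 to -0.20 under vehicle. The part of this list in the Ctla4 values was not tested.

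The ligand Cd274 was at 24.0, 7.98 and 18.8 CPM under vehicle. Under anti-PD1 it was at 1.89, 2.26 and 13.9 CPM, under the combination at 4.88, 7.67 and 13.9 CPM and under low dose regorafenib at 10.4, 2.10 and 8.16 CPM. Vehicle had the highest mean, and its range overlapped with each treated group. The hepatocyte list summed to 12100 to 17200 CPM under vehicle and to 1330 to 3840 CPM under anti-PD1, and with that list's score as a covariate the Cd274 change for anti-PD1 was -2.12 (adjusted p = 0.827). The log2 change was -1.53 (SE 0.81, 95% interval -3.31 to 0.25, adjusted p = 0.435) for anti-PD1 and -0.98 (SE 0.80, adjusted p = 0.756) for the combination. Without the third anti-PD1 library the former was -3.07, and over all single libraries left out it lay between -3.07 and -1.10. Pdcd1lg2, the other PD1 ligand, had 0 to 9 counts per library in this experiment. Lgals9, the galectin that binds TIM-3, lay between 93.8 and 180 CPM in all 12 libraries.

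Tnfrsf9, the co-stimulatory receptor, was at 53.8, 44.6 and 156 CPM under vehicle and at 23.3, 36.2 and 122 CPM under anti-PD1. The combination held 42.0, 61.3 and 76.8 CPM. In both the vehicle and the anti-PD1 group a single library stood far above the other two. Havcr2 was at 45.0, 27.5 and 21.8 CPM under vehicle, at 45.1, 30.4 and 44.3 CPM under anti-PD1 and at 19.9, 36.3 and 41.4 CPM under the combination. Its log2 change against vehicle was 0.31 (SE 0.34, 95% interval -0.45 to 1.06) for anti-PD1 and 0.01 (SE 0.34, 95% interval -0.74 to 0.77) for the combination. The interaction of the agents was not past the threshold in edgeR for any of the 8 members (0% of all genes), with 0 at an unadjusted p under 0.05 (10.8% of all genes). Its estimate was positive for 7 of 8 members, against 8054 of the 16615 genes tested, from 0.19 for Lgals9 to 2.17 for Tigit (SE 1.38, adjusted p = 0.618), and -0.64 (SE 0.49) for Havcr2. Leaving out single libraries moved the Tigit estimate between 1.03 and 3.01. Marker lists moved with the interaction: it was positive for 18 of 18 hepatocyte genes (median 4.04), 4 of 4 NK cell genes (median 3.04), 14 of 15 T cell genes (median 1.25) and 10 of 10 endothelial genes (median 1.04), and their part in the members' estimates was not tested. The combination against low dose regorafenib gave 0 members past the threshold (0% of all genes) and 0 at an unadjusted p under 0.05 (3.64%) in edgeR. Lgals9 alone did not overlap between those groups and was higher in the combination (6.84% of all genes were). DESeq2 and limma voom called no member for the interaction or for this comparison.

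**Figure D3:**
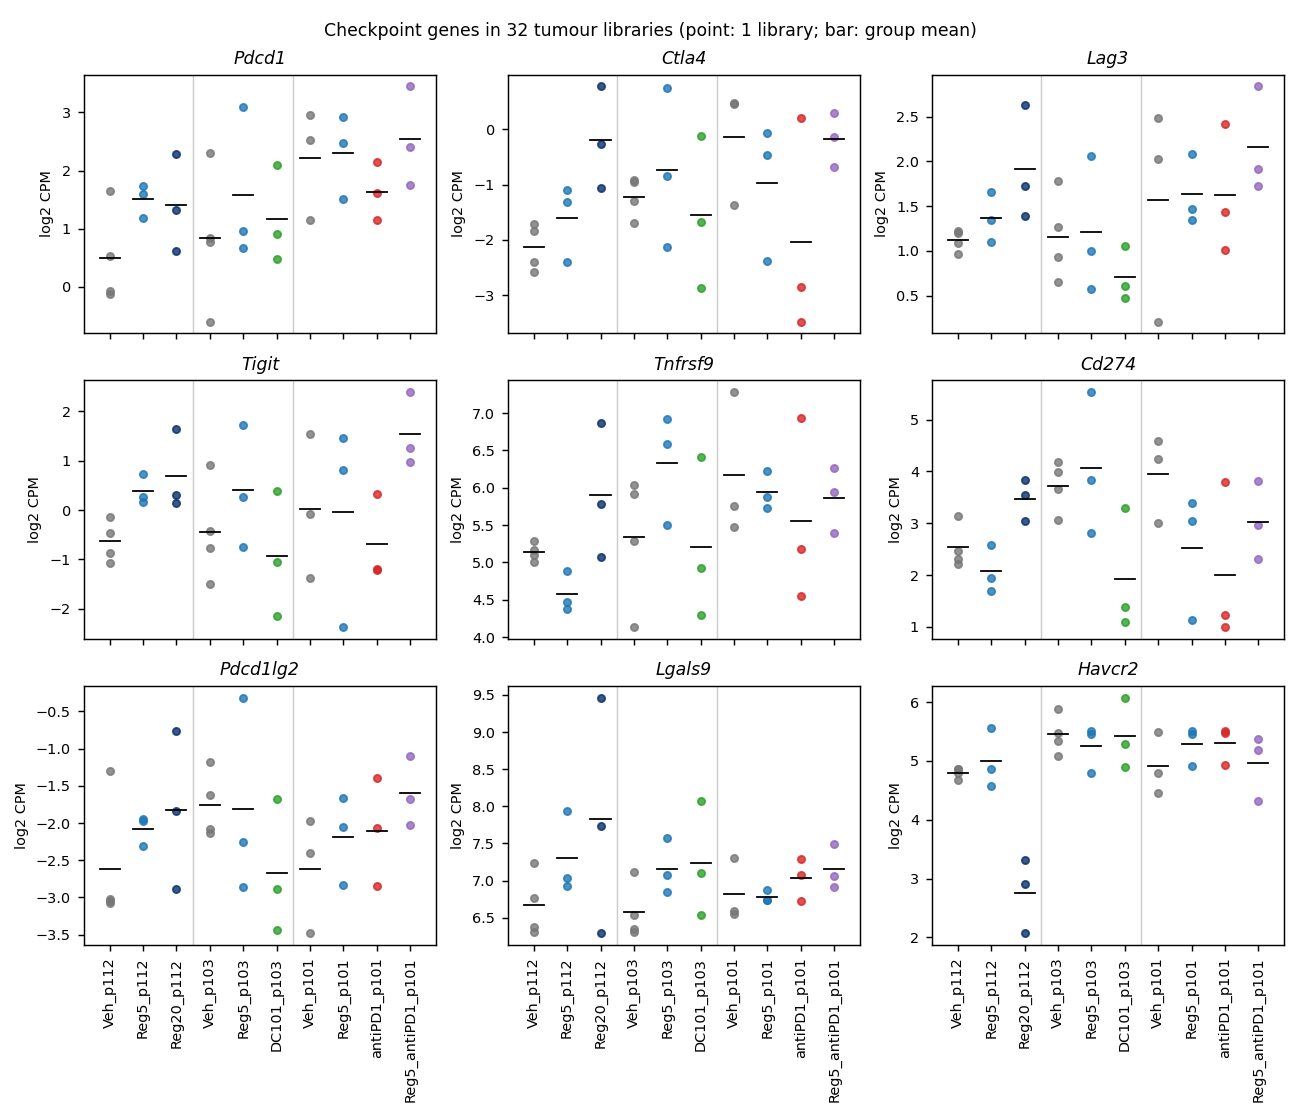
Log2 CPM (prior count 2) of the 9 checkpoint genes in each of the 32 libraries, by group, with grey lines between the experiments. Points are libraries and bars group means; the Reg20 group lies below all others for Havcr2, and the combination lies above anti-PD1 for Tigit.

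At the high dose of regorafenib, Havcr2 fell while Ctla4 and Tigit rose. Past the threshold were 3 of the 8 members tested, 1 lower and 2 higher, beside 15.6% of all 16525 genes tested in that comparison (8.8% higher and 6.82% lower). The high dose libraries had 5.37%, 2.86% and 2.14% of counts on mitochondrial genes and TMM factors of 0.716, 1.03 and 1.09, against 1.84% to 2.31% and 1.01 to 1.10 under vehicle. At an unadjusted p under 0.05 there were 7 of 8, beside 40.1% of all genes. Ctla4, Lag3 and Tigit lay wholly above vehicle, as did 11.9% of all genes, and Havcr2 wholly below, as did 16% of them. Havcr2 was at 29.2, 25.5, 27.8 and 29.0 CPM under vehicle, at 47.1, 29.0 and 23.7 CPM at the low dose and at 4.12, 9.87 and 7.37 CPM at the high dose. The high dose libraries were the lowest of all 32 for this gene and did not overlap with any other group. The log2 change against vehicle was -1.95 (SE 0.31, adjusted p = 0.0203, n = 3 and 4). The macrophage list moved the same way: 12 of its 14 genes fell, none rose, and its summed level was 968 to 2430 CPM against 3050 to 5130 CPM under vehicle. Relative to the macrophage score, Havcr2 was lower by 0.51 on the log2 scale (exact permutation p = 0.0571, adjusted p = 0.103, where 0.0286 is the smallest possible). Relative to that score, which itself went from a mean of 7.26 to 5.74, Cd274 differed by 2.46 and Lgals9 by 2.69 (exact permutation p = 0.0286 and adjusted p = 0.103 each). For Pdcd1lg2 the difference was 2.31 (exact permutation p = 0.0571, adjusted p = 0.103). These ligands did not follow the macrophage score across the 32 libraries (r = -0.34 for Cd274, -0.31 for Lgals9 and -0.02 for Pdcd1lg2).

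Ctla4 was at 0.0850, 0.108, 0.224 and 0.198 CPM under vehicle (2 to 6 counts) and at 0.750, 1.63 and 0.396 CPM at the high dose (10 to 45 counts). All 3 high dose libraries were above all vehicle libraries. The log2 change was 2.56 (SE 0.62, adjusted p = 0.0384), which rests on few reads under vehicle. Tigit was at 0.467, 0.648, 0.822 and 0.395 CPM under vehicle, at 1.04, 1.57 and 1.13 CPM at the low dose and at 1.02, 3.05 and 1.15 CPM at the high dose. Here the low dose libraries also lay wholly above vehicle, as in 7.86% of all genes. Its log2 change was 1.59 (SE 0.46, adjusted p = 0.0483) at the high dose and 1.06 (SE 0.46, adjusted p = 0.989) at the low dose. Leaving out single libraries moved the high dose value between 0.93, without the second high dose library, and 1.84. The T cell list rose beside them, with 8 of 15 genes higher and none lower at the high dose. The NK cell list (2 of 3 tested genes higher, median 2.28) and the B cell list (2 of 5 higher, median 3.93) moved the same way, and their part in the changes of Ctla4 and Tigit was not tested. Relative to the T cell score, Tigit differed by -0.13 (exact permutation p = 0.571) and Ctla4 by 0.50 (exact permutation p = 0.0857).

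The other T cell receptors were less apart. Lag3 was at 2.21, 2.05, 2.24 and 1.86 CPM under vehicle and at 3.21, 6.13 and 2.54 CPM at the high dose, without overlap. Its log2 change of 0.95 (SE 0.33) missed the threshold at an adjusted p of 0.0662, and lay between 0.50 and 1.16 when single libraries were left out. Relative to the T cell score, Lag3 differed by -0.65 (exact permutation p = 0.0571, adjusted p = 0.103). Pdcd1 was at 1.36, 0.865, 3.03 and 0.830 CPM under vehicle and at 1.45, 4.79 and 2.42 CPM at the high dose, with overlap (log2 change 0.95, SE 0.53, adjusted p = 0.206). With single libraries left out, the Pdcd1 change lay between 0.38 and 1.51.

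Cd274 was at 4.59, 8.64, 4.89 and 5.46 CPM under vehicle, at 3.79, 3.15 and 5.92 CPM at the low dose and at 11.5, 14.1 and 8.16 CPM at the high dose. The high dose group overlapped with vehicle through 1 library and was above the whole low dose group. Its log2 change was 0.95 (SE 0.34, adjusted p = 0.072) against vehicle. Tnfrsf9 was at 32.2, 39.2, 35.8 and 34.3 CPM under vehicle, at 20.8, 22.1 and 29.7 CPM at the low dose and at 33.6, 54.9 and 116 CPM at the high dose. The low dose libraries were below all vehicle libraries, as in 5.91% of the genes tested in that comparison (log2 change -0.58, SE 0.35, adjusted p = 0.991). The high dose change was 0.95 (SE 0.34, adjusted p = 0.0714), and 0.32 without the third high dose library. Lgals9 was at 83.2, 79.0, 109 and 150 CPM under vehicle and at 703, 214 and 78.2 CPM at the high dose. The order of these 3 libraries was that of their hepatocyte list scores of 12.2, 9.8 and 7.17. With that score as a covariate the log2 change of Lgals9 went from 1.71 (SE 0.63, adjusted p = 0.0797) to -0.13, and without the first high dose library it was 0.47.

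The doses were also compared directly, a comparison added after the values were seen. Havcr2 was the 1 member of 8 past the threshold, with a log2 change of -2.18 at the high against the low dose (SE 0.33, adjusted p = 0.0146), beside 4.22% of all genes. At an unadjusted p under 0.05 there were 4 of 8, beside 29.3%. Tnfrsf9 (1.53, SE 0.37, adjusted p = 0.0538) and Cd274 (1.45, SE 0.37, adjusted p = 0.0612) did not pass, though neither gene's dose groups overlapped, as in 28.7% of all genes.

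The calls at the high dose were sensitive to single libraries. Leaving out any 1 of the 4 vehicle libraries left 0 of the 8 members past the threshold, with adjusted p of 0.0611 to 0.0669 for Havcr2 and log2 changes of -1.96 to -1.93. Without high dose library 1, 2 or 3 the count was 2, 1 and 6, and Havcr2 passed in all 3 fits. With the hepatocyte score as a covariate no member passed (Havcr2 -1.63, adjusted p = 0.0515). Over the 15 alternative fits made, Havcr2 missed the threshold in 7, and Ctla4 and Tigit missed it in 12 each. None of these genes changed direction in any of them.

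**Figure D4:**
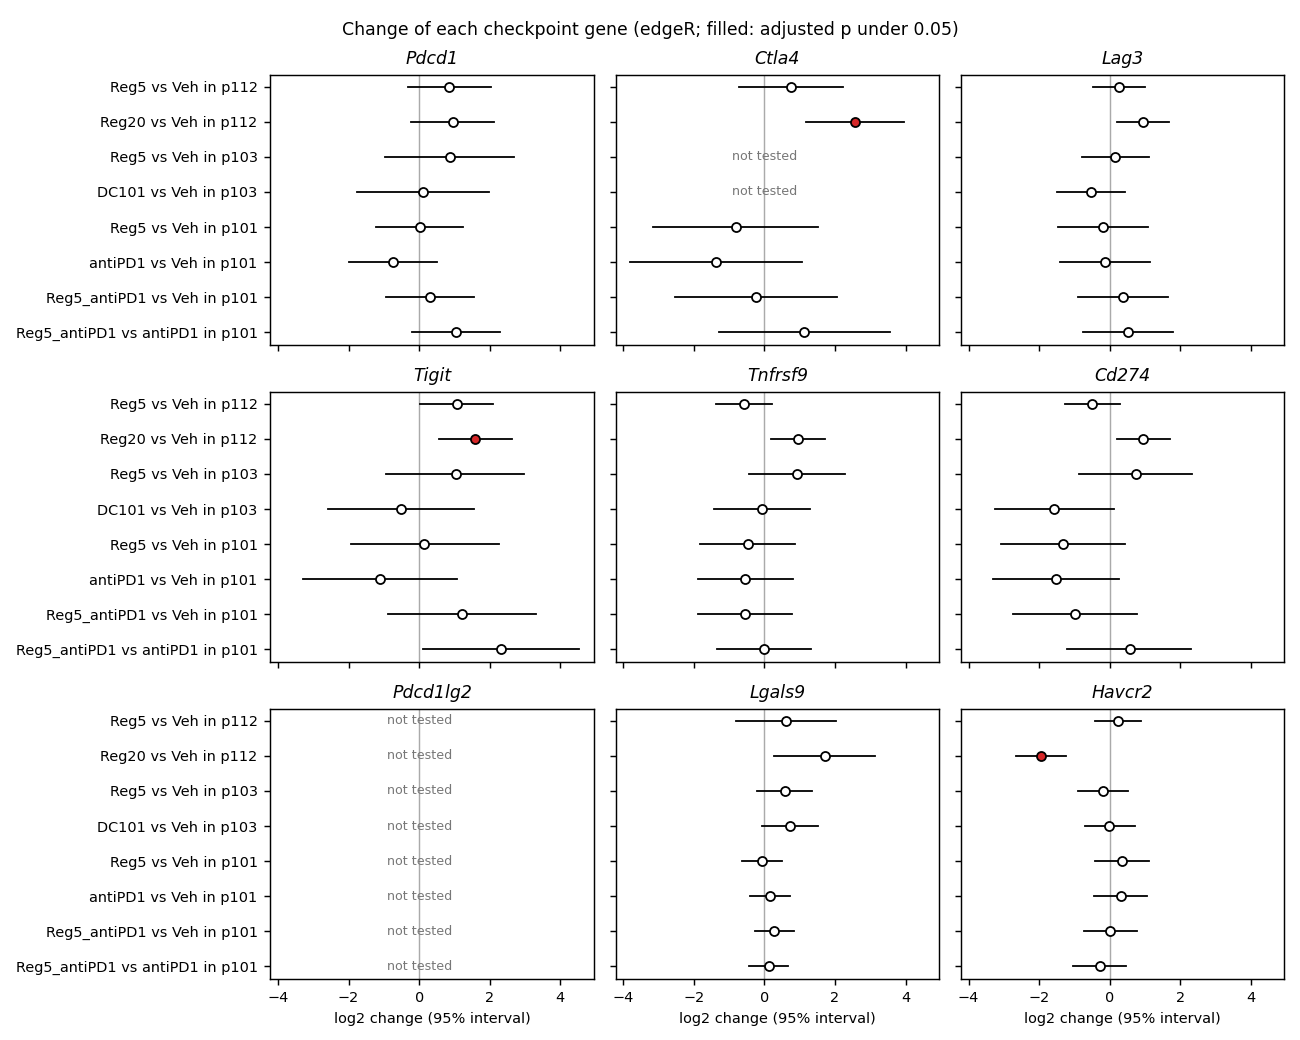
Log2 change of each checkpoint gene in 8 comparisons, with its 95% interval, from edgeR's quasi-likelihood fit within each experiment. Filled points are past an adjusted p of 0.05: Havcr2 at -1.95, Ctla4 at 2.56 and Tigit at 1.59 at the high dose, and no point in the anti-PD1 or DC-101 experiments.

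The low dose of regorafenib was given in all 3 experiments, with 9 treated and 11 vehicle tumours. No member was past the threshold in edgeR in any one experiment. At an unadjusted p under 0.05 there was 1 of 8 members in p112 (Tigit), 0 of 7 in p103 and 0 of 8 in p101, beside 4.94%, 17.1% and 11.8% of all genes. The share of all genes past the threshold was 0%, 0.0248% and 0%. In the fit over the 3 experiments, 0 of 7 members passed, beside 1.77% of 15562 genes, and 1 had an unadjusted p under 0.05, beside 16% of them. DESeq2 and limma voom called no member in these fits. The member under 0.05 was Lgals9, with a log2 change of 0.40 (SE 0.17, adjusted p = 0.263). The fitted changes of Pdcd1 (0.60, SE 0.40) and Tigit (0.77, SE 0.48) were positive in 3 of 3 experiments without passing in any. In p101 they were 0.02 (SE 0.56) and 0.15 (SE 0.96), the mean log2 CPM of Tigit there was -0.03 against 0.03 under vehicle, and both changes turned negative with the hepatocyte covariate. In p103 the changes of Pdcd1 and Tigit were 0.86 and 1.03, and they went as low as -0.38 and 0.0 when single libraries were left out. Havcr2 changed by 0.12 (95% interval -0.22 to 0.47) and Lag3 by 0.08 (95% interval -0.45 to 0.62).

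The ligand Cd274 and the receptor Tnfrsf9 went different ways in the 3 experiments. For Tnfrsf9 the log2 change was -0.58 with the dose groups (p112), 0.93 in p103 and -0.48 in p101. The edgeR test of a difference between experiments gave an adjusted p of 0.528. For Cd274 the change was -0.50, 0.73 and -1.32 (adjusted p = 0.550). In the DC-101 experiment a single low dose library held 46.0 CPM of Cd274 against 6.90 and 14.1 CPM in the others, and without it the change there was -0.38. No member was past the threshold in the edgeR test between experiments (0% of all genes), or in DESeq2 or limma voom, with 0 at an unadjusted p under 0.05 (9.52% of all genes).

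Each member was also set against the marker list of the cells best known to carry it, in the low dose and vehicle libraries of all 3 experiments. The difference was tested by exact permutation of the treatment within experiments, with 4.08e-05 as the smallest p possible. The mean T cell score was itself higher at the low dose than under vehicle. It was 1.35 against 0.38 in p112, 1.08 against 0.61 in p103 and 1.71 against 0.87 in p101, with overlap in p103 and p101. Without the list, the mean log2 CPM was 1.4 against 1.26 for Lag3 and -1.11 against -1.26 for Ctla4. Relative to the T cell list, Lag3 was lower by 0.64 on the log2 scale (exact p = 0.0308, adjusted over 9 members p = 0.215), with 1 of 9 treated libraries above the vehicle mean. Ctla4 was lower by 0.70 (exact p = 0.0478, adjusted p = 0.215). Neither passed after adjustment, and in p112, p103 and p101 the Ctla4 difference was -0.44, 0.01 and -1.66. The difference was -0.14 for Pdcd1 (exact p = 0.523) and -0.15 for Tigit (exact p = 0.891), but it went different ways in the experiments. In p112, p103 and p101 it was 0.05, 0.28 and -0.74 for Pdcd1 and 0.05, 0.39 and -0.90 for Tigit. Tnfrsf9 differed from the T cell list by -0.69 (exact p = 0.234), with -1.53, 0.52 and -1.07 in the experiments. Relative to the macrophage list, Cd274 differed by -0.85 (exact p = 0.0773, with -1.14, 0.16 and -1.58 in the experiments), Havcr2 by -0.21 (exact p = 0.171) and Lgals9 by 0.06 (exact p = 0.761). Some members did not follow their list across the 32 libraries: r was 0.20 for Tnfrsf9, -0.34 for Cd274 and -0.31 for Lgals9. For these members the difference also carries the movement of the list itself.

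DC-101 blocks VEGFR2 alone, while regorafenib inhibits further kinases. Of the 7 members tested, 0 were past the threshold for DC-101 against vehicle in edgeR, DESeq2 or limma voom, beside 0% of all 16138 genes, and 0 had an unadjusted p under 0.05, beside 13.2%. Cd274 was at 15.7, 8.27, 18.1 and 12.5 CPM under vehicle and at 2.52, 2.04 and 9.67 CPM under DC-101. A pair of DC-101 libraries lay below every vehicle library and the third within their range. The log2 change was -1.57 (SE 0.75, 95% interval -3.26 to 0.13, adjusted p = 0.397), and it lay between -2.59, without the third DC-101 library, and -1.16 when single libraries were left out. Lgals9 was at 79.5, 81.5, 138 and 92.0 CPM under vehicle and at 92.4, 138 and 269 CPM under DC-101 (log2 change 0.73, SE 0.35, adjusted p = 0.396). Without the third DC-101 library this change was 0.22. The hepatocyte list score was 0.54 to 7.36 under vehicle and 2.15 to 10.26 under DC-101. The remaining members had log2 changes between -0.54 for Lag3 and 0.11 for Pdcd1, and Havcr2 was at -0.01 (95% interval -0.71 to 0.70).

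A wider list of 38 genes held the other receptors and ligands of these pathways. At the high dose 11 of its 33 tested genes passed, 7 higher and 4 lower, beside 15.6% of all genes, with a median log2 change of 0.47 against 0.02 over all genes. Cd28, the co-stimulatory partner that CTLA-4 opposes, rose by 2.02 on the log2 scale (SE 0.43, adjusted p = 0.0324). Cd226, the activating counterpart of TIGIT, rose by 1.84 (SE 0.38, adjusted p = 0.0322). Both of these are T cell genes, and both rose beside their inhibitory rivals Ctla4 and Tigit. Among the myeloid genes, Lair1, a collagen receptor, fell by 1.75 (SE 0.22, adjusted p = 0.0143). Cd86, a ligand of CD28 and CTLA-4, fell by 1.27 (SE 0.29, adjusted p = 0.0355). The other genes that passed, named after their values were seen, were Cd96, Icos, Tnfrsf4, Vtcn1 and Ceacam1, which rose, and Cd276 and Hmgb1, which fell. Against the low dose, 3 of the 33 passed, beside 4.22% of all genes, and Lair1 (-2.38), Cd86 (-1.79) and Icosl (-1.84), the ligand of ICOS, all fell.

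At the low dose over 3 experiments, 1 of 32 tested genes of this list passed, beside 1.77% of all genes. It was Tnfsf9, which encodes the ligand of 4-1BB. Its level was 5.02 to 6.6 CPM under vehicle and 8.45 to 11.2 CPM under the low dose in the dose experiment, and 5.06 to 14.5 against 18.5 to 23.7 CPM in the DC-101 experiment. In the anti-PD1 experiment it was 3.74 to 14.3 CPM under vehicle and 12.8 to 13.0 CPM under the low dose. The groups did not overlap in 2 of the 3 experiments, as for 7.86% and 6.98% of all genes that were higher there. The log2 change was 0.82 (SE 0.21, adjusted p = 0.0486), while that of its receptor Tnfrsf9 was -0.01 (SE 0.30, 95% interval -0.63 to 0.61).

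In the other comparisons between groups no gene of the wider list passed in edgeR. The 1 with the smallest p is given for each, with the number of the 33 tested genes (32 in the DC-101 experiment) at an unadjusted p under 0.05 and the share of all genes under it. For anti-PD1 against vehicle it was Vtcn1 (B7-H4), an inhibitory ligand of the B7 family, at -2.26 (SE 0.59, adjusted p = 0.249), and 5 genes were under 0.05, all lower (13.7% of all genes). The hepatocyte list had the sign of the Vtcn1 change wherever Vtcn1 is named: its median was -2.34 for anti-PD1, -1.80 for the low dose in p101, 4.04 for the interaction and 3.65 at the high dose. Its part in the Vtcn1 values was not tested. For the combination against anti-PD1 it was Btla, an inhibitory receptor of lymphocytes, at 2.54 (SE 0.49, adjusted p = 0.472), and 8 were under 0.05, all higher (8.68% of all genes). Its 3 combination libraries were above its 3 anti-PD1 libraries, as for 16.2% of all genes. The B cell list scored -1.39 to -1.17 under anti-PD1 and -0.15 to 0.88 under the combination, and its part in the Btla change was not tested. For the combination against vehicle Btla was again first (1.13, SE 0.45, adjusted p = 0.565), with 2 genes under 0.05 (8.2%). For the interaction it was Vtcn1 (3.66, SE 0.82, adjusted p = 0.244), with 6 genes under 0.05 (10.8%), and for the combination against low dose regorafenib Nectin2 (0.91, SE 0.37, adjusted p = 0.889), with 3 (3.64%). The low dose against vehicle gave Cd96 in the dose experiment (1.58, SE 0.44, adjusted p = 0.781), with 7 genes under 0.05 (4.94%). It gave Cd80 in the DC-101 experiment (1.33, SE 0.35, adjusted p = 0.140), with 7 (17.1%), and Vtcn1 in the anti-PD1 experiment (-2.30, SE 0.58, adjusted p = 0.246), with 4 (11.8%). For DC-101 it was Ceacam1 (1.97, SE 0.65, adjusted p = 0.327), with 3 (13.2%). The Ceacam1 groups overlapped there. The hepatocyte list went the same way under DC-101 (median 3.35), as it did at the high dose where Ceacam1 also rose, and its part in the Ceacam1 values was not tested. In the test of a low dose change that differs between experiments it was Cd80 (adjusted p = 0.392), with 5 of 32 genes under 0.05 (9.52%).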

How the data were processed

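RNA of 32 tumours was made into stranded mRNA libraries and sequenced as read pairs. The deposited tables hold unnormalised read counts for each gene, which the authors obtained by trimming with cutadapt 2.4 and by aligning and counting with STAR 2.7.2a on GRCm38 and Gencode. The strand setting is not given in the sources used here. Groups came from the sample titles.

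The groups of an experiment shared 1 model in edgeR 4.0.16 (R 4.3.3): filterByExpr (minimum count 10, minimum total 15), TMM scaling, the robust quasi-likelihood F-test (2-sided) and Benjamini-Hochberg adjustment over all genes, with an adjusted p of 0.05 as the threshold. The low dose was also fitted over 3 experiments with experiment as a term. Log2 CPM used a prior count of 2, and 3 counts were taken as the floor, which covers counting error only. The alternatives included DESeq2 1.42.0 and limma 3.58.1 voom. The code was tested on simulated data. Libraries of 1 group differed beyond sampling noise (chi-square per degree of freedom 14 to 919 over 36 pairs). The labels do not tie libraries to numbered animals, so p-values measure only the spread between libraries. Symbols matched 54409 of 54446 identifiers, and exonic lengths are from Gencode. Wider-list genes were named by p: up to 4 past the threshold, or the 1 smallest; the other 7 that passed at the high dose were named after their values were seen. For each member the 3 genes with the largest r were named, except that 1 gene is not reported here. The members and lists were chosen with earlier results of these data known.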

Additional observations from a re-analysis of the deposited data

Results flagged for a closer look

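In the dose experiment, Pdcd1lg2 in vehicle replicate 2 was at a log2 CPM of -1.3, far from the other 3 vehicle libraries, which lay between -3.08 and -3.02. These values rest on 6 counts against 1 count in each of the others. Of 18 sets of 4 vehicle libraries examined in this way, 1 stood out, and chance alone gives about 5%.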

How the results depend on the processing

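Reg20 and Reg5 stand for the high and the low dose. At the high dose against vehicle, 3 members passed the threshold. The number was 7 with DESeq2, 1 with limma voom, 1 with library total scaling, 1 without the filter on low counts, and 0 with the hepatocyte score as a covariate, in a fit of only the groups compared or with the replicate number as a block. It was 0 to 6 when single libraries were left out. For the high against the low dose, 1 member passed. It was 3 with DESeq2, 2 with limma voom, 2 with the hepatocyte covariate, 0 with the replicate block and 0 in the fit of only the groups compared, and 0 to 4 when single libraries were left out (0 without low dose library 1 or 2, 2 without high dose library 1, 4 without high dose library 3). The count over members set relative to their lists was 0 to 1, with 1 without vehicle library 3 of the DC-101 experiment. At the high dose the median of all genes was 0.02 and, with library total scaling, -0.13 (log2). Whether replicate numbers mark pairs is not stated. Same-numbered libraries deviated together (r above 0.1) in 2 of 9, 4 of 9 and 6 of 18 pairs. In p103 the pairs of replicate 3 had r = 0.45, 0.67 and 0.63. Libraries with different numbers were not compared in this way, so the question is not settled. The block changed no other count. All other counts of members passed were 0 under every alternative run. Of 776 single changes under alternatives other than a left-out library, 712 kept their direction and their side of the threshold, 17 no longer passed, 8 newly passed and 39 changed sign. The cause was not tested. None of the 39 was past the threshold in the fit reported.

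With the hepatocyte covariate the sign changed for Lgals9 at Reg20 vs Veh (-0.13) and Reg20 vs Reg5 (-0.27), and in p103 for Reg5 vs Veh in Havcr2 (0.04) and Lgals9 (-0.07) and for DC101 vs Veh in Pdcd1 (-0.24) and Havcr2 (0.13). In p101 it did so for Reg5 vs Veh in Pdcd1 (-1.01), Havcr2 (-0.17), Tigit (-1.17) and Lgals9 (0.11), for antiPD1 vs Veh in Havcr2 (-0.39), and for the combination vs Veh in Pdcd1 (-0.13) and Havcr2 (-0.22). It did so too for the combination vs antiPD1 in Havcr2 (0.17) and Lgals9 (-0.07), and for the interaction in Havcr2 (0.34) and Lgals9 (-0.18). Havcr2 under DC101 in p103 was at 0.01 with DESeq2, 0.0 with RLE size factors, 0.02 without the filter and 0.01 in the fit of only the groups compared. Havcr2 in the combination vs Veh was at -0.01 in the fit of only the groups compared and -0.01 with the replicate block. With limma voom the sign changed for Pdcd1 at Reg20 vs Reg5 (-0.01), and in p101 for Lag3 (0.06) and Tigit (-0.08) at Reg5 vs Veh, Lag3 under antiPD1 (0.01) and Tnfrsf9 in the combination vs antiPD1 (0.32). It also changed for Tnfrsf9 at the low dose over 3 experiments (0.08). Tnfrsf9 in the combination vs antiPD1 was at 0.08 with library total scaling and 0.26 with the replicate block. The block gave -0.03 for Lag3 at Reg5 vs Veh in p103, and -0.15 for Pdcd1 and -0.25 for Tigit at Reg5 vs Veh in p101. Over the experiments, the low dose gave 0.12 for Cd274 and 0.20 for Tnfrsf9 without p101, and -0.02 for Lag3 and 0.27 for Tnfrsf9 without p112. Pdcd1lg2 relative to its list was at 0.19 with a prior count of 0.5.

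Leaving out single libraries turned the sign of the changes whose ranges follow. Not all of them were small in the main fit, which gave -1.11 for Tigit at antiPD1 vs Veh. At Reg5 vs Veh in p103 it gave 1.03 for Tigit, 0.86 for Pdcd1 and 0.73 for Cd274. At Reg5 vs Veh in p112 Havcr2 ranged from -0.11 to 0.44, and at Reg20 vs Reg5 Lgals9 from -0.15 to 1.49, Pdcd1 from -0.48 to 0.39 and Tigit from -0.15 to 0.77. At Reg5 vs Veh in p103 the ranges were -0.38 to 1.14 for Cd274, -0.31 to 0.02 for Havcr2, -0.43 to 0.44 for Lag3, -0.38 to 1.61 for Pdcd1 and 0.0 to 1.77 for Tigit. For DC101 vs Veh they were -0.38 to 0.24 for Havcr2, -0.51 to 0.86 for Pdcd1, -1.58 to 0.23 for Tigit and -0.90 to 0.34 for Tnfrsf9. At Reg5 vs Veh in p101 they were -0.61 to 0.24 for Lag3, -0.19 to 0.17 for Lgals9, -0.34 to 0.35 for Pdcd1, -0.55 to 1.28 for Tigit and -0.78 to 0.34 for Tnfrsf9. For antiPD1 vs Veh they were -0.66 to 0.29 for Lag3, -1.95 to 0.05 for Tigit and -1.57 to 0.28 for Tnfrsf9. For the combination vs Veh they were -0.66 to 0.04 for Ctla4, -0.21 to 0.32 for Havcr2, -0.07 to 0.81 for Lag3, -0.32 to 0.65 for Pdcd1 and -0.86 to 0.27 for Tnfrsf9. For the combination vs antiPD1 they were -0.06 to 0.25 for Lgals9 and -0.40 to 1.02 for Tnfrsf9. For the combination vs Reg5 they were -0.17 to 0.77 for Cd274, -0.34 to 0.61 for Pdcd1 and -0.31 to 0.13 for Tnfrsf9. For the interaction they were -0.04 to 0.32 for Lgals9 and -0.35 to 1.5 for Tnfrsf9. At the low dose over 3 experiments they were -0.09 to 0.21 for Lag3 and -0.16 to 0.24 for Tnfrsf9. Relative to the marker lists they were -0.06 to 0.15 for Lgals9, -0.24 to 0.16 for Pdcd1lg2 and -0.31 to 0.11 for Tigit. At 0 to 45 counts of Ctla4 and 0 to 16 of Pdcd1lg2, depth limits what can be seen of these genes.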
